A study of Mus musculus with 24 samples.

Results

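Glucocorticoid-induced genes were followed in 2 reward regions of mice with and without the vitamin D receptor, the ventral tegmental area (VTA) and the nucleus accumbens. The set holds 10 genes, Fkbp5, Tsc22d3, Sgk1, Plin4, Angptl4, Cdkn1a, Arrdc2, Sult1a1, Hif3a and Zbtb16, of 30270 gene identifiers in the series. They were chosen by name with their higher measured values in Vdr-/- than in wild-type libraries already known, so the genotype differences below are a description of the choice and carry no test. Which of the 4 genotype comparisons (2 regions, 2 injections) the choice rested on is not recorded, and all 4 are treated alike. All 10 genes were present in all 8 tables of normalized counts.

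The series has 24 mRNA libraries from bilateral micropunches of 12 C57BL/6 mice, 12 libraries for each region. The 4 groups per region were wild-type (VDR+/+) or Vdr-/- (VDR-/-) mice given an intraperitoneal injection of PBS or of morphine sulfate at 5 mg/kg, 3 mice each, with tissue taken 90 min after injection. The Vdr-/- mice lack the receptor in every tissue and throughout development, and were raised on a rescue diet rich in calcium, phosphate and lactose. The diet of the wild-type mice was not given in the sources used here, so that genotype and diet cannot be told apart. The time of day of tissue collection, on which the hormone level depends, and the age of these mice were not given in the sources used here either. In the library descriptions the PBS libraries carry a name prefix that the morphine libraries lack, so injection and any difference in library handling cannot be told apart. A library held 9328726 to 30184426 reads assigned to genes, with a median of 16779763.5. Libraries of the 2 regions whose labels carry the same number were taken as 1 mouse, and they are named below by that number.

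Glucocorticoids, chiefly corticosterone in mice, cross into the brain and bind the glucocorticoid receptor (Nr3c1) and the mineralocorticoid receptor (Nr3c2). The bound receptor moves to the nucleus and attaches to glucocorticoid response elements, paired AGAACA-like half-sites in inverted orientation with a spacer between them, from which it raises a shared set of genes in neurons, glia and vessels. The 10 genes are known to be induced by the hormone in 1 tissue or another, which is background and not a result of these libraries. Fkbp5, Tsc22d3 and Sgk1 act in hormone feedback and signaling, Zbtb16 and Hif3a are transcription factors, Cdkn1a and Arrdc2 act in growth control and protein trafficking, and Plin4, Angptl4 and Sult1a1 act in lipid and small-molecule metabolism.

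The promoters of these genes were searched for the letters of the response element in the RefSeq windows of 250 bases before to 50 after each transcript start (GRCm38.p6), since the set is named for its response to the hormone. The table holds 16 windows for 8 of the 10 genes, and none for Angptl4 and Zbtb16. The full inverted repeat (AGAACA, any 3 bases, then TGTTCT), read on both strands, was in 3 of 32851 windows of all genes (0.00913%), and 1 of the 3 was a Sgk1 window. Its core ACANNNTGT was in 6.85% of all windows and in 2 of the 16 windows, both of Sgk1. The half-site AGAACA was in 19.0% of all windows and in 5 of the 16, from Sgk1, Sult1a1 and Tsc22d3. The vitamin D response element (AGGTCA and, after any 3 bases, AGGTCA again) was in 2 of all windows (0.00609%) and in 0 of the 16. A match describes these letters in a short window, is not a site shown to be bound, and elements farther away were not searched. The 4 windows printed here hold the full repeat of Sgk1, its other core match, and 1 window each of Sult1a1 and Tsc22d3 with half-sites. Capitals mark each match of ACANNNTGT or AGAACA on either strand (TGTTCT is the half-site on the other strand).
Sgk1, chr10:21993640-21993939, plus strand: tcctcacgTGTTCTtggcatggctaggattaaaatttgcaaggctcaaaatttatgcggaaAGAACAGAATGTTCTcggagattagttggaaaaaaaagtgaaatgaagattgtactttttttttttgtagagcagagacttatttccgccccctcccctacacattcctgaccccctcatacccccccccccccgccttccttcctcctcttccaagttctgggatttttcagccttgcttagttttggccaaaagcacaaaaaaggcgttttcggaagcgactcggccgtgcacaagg
Sgk1, chr10:21978422-21978721, plus strand: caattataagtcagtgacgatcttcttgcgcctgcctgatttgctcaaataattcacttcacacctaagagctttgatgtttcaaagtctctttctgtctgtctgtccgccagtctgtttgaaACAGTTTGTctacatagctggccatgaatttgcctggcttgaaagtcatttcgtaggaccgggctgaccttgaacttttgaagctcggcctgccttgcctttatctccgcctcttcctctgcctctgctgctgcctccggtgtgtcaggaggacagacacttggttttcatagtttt
Sult1a1, chr7:126676369-126676668, minus strand: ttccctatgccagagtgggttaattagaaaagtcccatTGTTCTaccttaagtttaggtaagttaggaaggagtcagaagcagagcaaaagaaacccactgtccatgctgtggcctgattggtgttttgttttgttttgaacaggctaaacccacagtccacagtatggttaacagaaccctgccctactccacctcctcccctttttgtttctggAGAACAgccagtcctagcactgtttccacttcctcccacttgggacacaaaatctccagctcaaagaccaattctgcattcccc
Tsc22d3, chrX:140600473-140600772, minus strand: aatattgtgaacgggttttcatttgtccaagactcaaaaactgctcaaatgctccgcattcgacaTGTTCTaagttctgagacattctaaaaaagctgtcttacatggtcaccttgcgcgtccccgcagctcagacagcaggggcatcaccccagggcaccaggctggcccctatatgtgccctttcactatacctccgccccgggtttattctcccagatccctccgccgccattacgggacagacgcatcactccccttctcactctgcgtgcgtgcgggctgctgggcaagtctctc
In the first Sgk1 window the core of the full repeat starts at position -186 from the transcript start, with 1 more half-site upstream of it. In the windows of Fkbp5, Cdkn1a, Plin4, Arrdc2 and Hif3a none of these letters were found.

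Under PBS all 10 genes were higher in Vdr-/- than in wild-type mice in both regions, and after morphine most of these differences were much smaller. In the nucleus accumbens the log2 differences under PBS ran from 0.33 (Cdkn1a) to 1.73 (Plin4), with a median of 0.74 beside 0.01 over all genes tested. Every Vdr-/- library lay above every wild-type library for 10 of 10 genes, an order seen in 7.26% of all genes. In the VTA the differences ran from 0.51 (Tsc22d3) to 1.80 (Plin4), with a median of 1.17, and 9 of 10 genes did not overlap beside 9.79% of all genes. These counts belong to comparisons on which the choice of genes may rest, and nothing is read from them.

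After morphine the median difference between genotypes was 0.15 (accumbens) and 0.21 (VTA). There the groups did not overlap for 2 genes in the nucleus accumbens (Sult1a1 and Zbtb16, beside 6.08% of all genes) and for 3 in the VTA (Plin4, Sult1a1 and Zbtb16, beside 7.07%). The difference was smaller after morphine than under PBS for 10 of 10 accumbens values and 9 of 10 in the VTA, where Zbtb16 was the exception. Leaving out wild-type morphine mouse 1.0 turned the median in the nucleus accumbens to -0.01, and leaving out that mouse in the VTA gave 0.04. The other single omissions gave 0.06 to 0.29 (accumbens) and 0.06 to 0.38 (VTA). Leaving out Vdr-/- morphine mouse 2.0 or wild-type morphine mouse 1.2 raised the count without overlap in the nucleus accumbens from 2 to 4. The change of the genotype difference with injection was not tested, since it contains the comparisons on which the choice may rest. With 1 library left out, the sign of the difference after morphine turned for Tsc22d3, Cdkn1a, Arrdc2 and Hif3a in the accumbens and for Tsc22d3, Sgk1, Angptl4, Cdkn1a and Arrdc2 in the VTA.

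**Figure D1:**
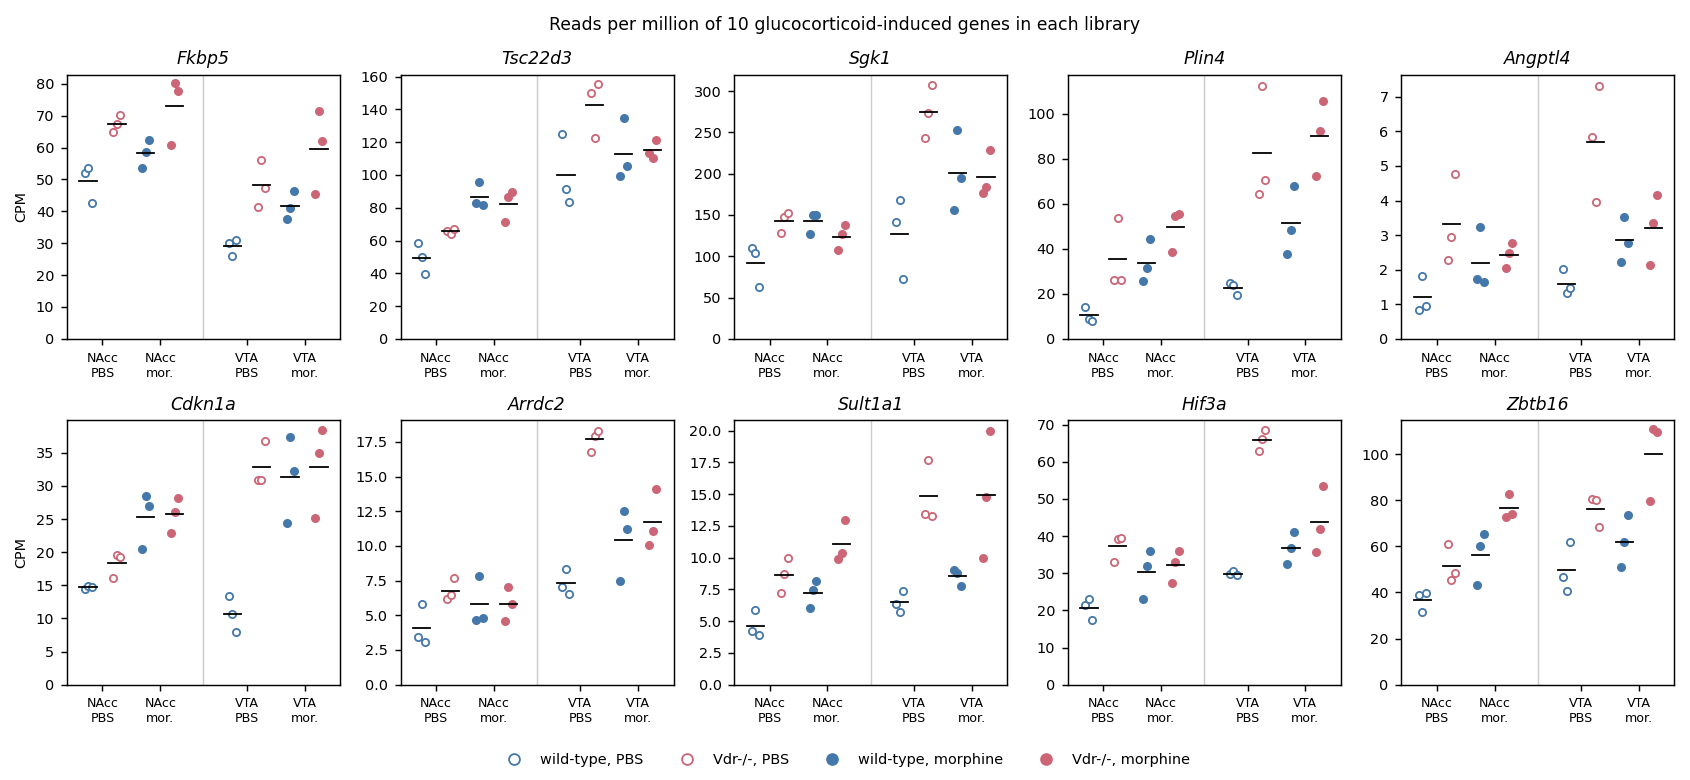
Level of each gene in CPM (vertical axis from 0) in every library, by region, injection (open circles PBS, filled circles morphine) and genotype (blue wild-type, red Vdr-/-). Horizontal lines are means of 3 mice. Under PBS the Vdr-/- libraries lie above the wild-type libraries for all 10 genes, with overlap only for Tsc22d3 in the VTA.

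Values per library are given as CPM, the usual unit in which a gene's reads are scaled to 1 common total of reads on genes in every library, in the order wild-type mice 1, 2 and 3 and Vdr-/- mice 7, 8 and 9 for PBS, and wild-type mice 1.0, 1.1 and 1.2 and Vdr-/- mice 2.0, 2.1 and 2.2 for morphine. Differences between groups are on the log2(normalized count + 1) scale with their SE from limma, and positive values mean higher in Vdr-/- mice or with morphine. Gene positions are those of GENCODE M21 on GRCm38. Because the tissue is bulk, fewer cells of a type and less RNA per cell cannot be told apart.

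Fkbp5 (chr17:28399094-28517527, minus strand) encodes a co-chaperone of Hsp90 that lowers the affinity of the glucocorticoid receptor for its hormone and is itself induced by the receptor. In the nucleus accumbens its PBS levels were 52.1, 53.7 and 42.6 CPM in wild-type and 64.9, 67.2 and 70.3 CPM in Vdr-/- mice. After morphine they were 53.6, 58.8 and 62.3 CPM and 60.8, 80.2 and 77.8 CPM. The genotypes were apart under PBS, and after morphine only Vdr-/- mouse 2.0 lay within the wild-type range. The difference between genotypes was 0.48 ± 0.09 under PBS and 0.32 ± 0.10 after morphine. In the VTA the levels were 30.1, 26.1 and 31.1 CPM in wild-type and 41.3, 56.2 and 47.3 CPM in Vdr-/- mice with PBS, and 37.6, 41.1 and 46.3 CPM and 45.3, 71.4 and 62.1 CPM with morphine. Again only mouse 2.0 fell among the wild-type mice after morphine. The VTA differences were 0.70 ± 0.12 and 0.49 ± 0.16.

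Tsc22d3 (chrX:140539528-140600659, minus strand), also known as GILZ, is a leucine zipper protein that carries part of the anti-inflammatory action of glucocorticoids. With PBS its accumbens levels were 58.7, 49.9 and 39.8 CPM in wild-type and 65.9, 64.05 and 67.2 CPM in Vdr-/- mice, with no overlap. With morphine they were 83.0, 95.8 and 81.7 CPM and 71.5, 86.8 and 89.4 CPM, so that both genotypes stood above all PBS libraries and overlapped each other. The genotype difference went from 0.45 ± 0.13 to -0.07 ± 0.09. VTA levels under PBS were 125, 91.7 and 83.4 CPM in wild-type and 150.0, 122 and 155 CPM in Vdr-/- mice, where wild-type mouse 1 exceeded Vdr-/- mouse 8. After morphine they were 99.1, 135 and 106 CPM and 113, 110.4 and 121 CPM, one range inside the other. The corresponding differences were 0.51 ± 0.15 and 0.03 ± 0.12.

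Sgk1 (chr10:21882184-21999903, plus strand), the serum- and glucocorticoid-regulated kinase that acts on ion channels and transporters, is the gene whose window holds the full repeat printed above. Under PBS the accumbens held 109.9, 104 and 62.8 CPM in wild-type and 128, 147 and 152 CPM in Vdr-/- mice. Morphine libraries held 127, 149.6 and 150.1 CPM and 107, 126 and 137 CPM. Wild-type mouse 3 was the lowest of all 12 accumbens libraries, and after morphine the wild-type mice were, on average, the higher genotype. The genotype difference was 0.69 ± 0.20 under PBS and -0.20 ± 0.09 after morphine. In the VTA the PBS levels were 141, 168 and 72.2 CPM and 243, 273 and 308 CPM, and the morphine levels 156, 252 and 195 CPM and 177, 184 and 229 CPM, wild-type first. Mouse 3 was again the lowest, and the genotypes were apart under PBS and mixed after morphine (1.17 ± 0.28 and -0.02 ± 0.18).

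Zbtb16 (chr9:48654297-48836222, minus strand) encodes PLZF, a zinc finger transcriptional repressor. Its accumbens levels were 39.01, 31.6 and 39.7 CPM in wild-type and 60.9, 45.2 and 48.6 CPM in Vdr-/- mice given PBS, and 43.3, 59.98 and 65.5 CPM and 72.9, 82.8 and 73.9 CPM in those given morphine. The genotypes did not overlap under either injection, with differences of 0.50 ± 0.15 and 0.47 ± 0.13. VTA levels were 46.8, 40.6 and 61.9 CPM and 80.5, 80.3 and 68.3 CPM with PBS, and 50.8, 61.8 and 73.4 CPM and 79.6, 111 and 109.6 CPM with morphine. Here too the genotypes stayed apart, by 0.62 ± 0.14 and 0.68 ± 0.17, and both genotypes had higher means with morphine.

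Hif3a (chr7:17031507-17062427, minus strand) belongs to the alpha subunits of the hypoxia-inducible factors, and some of its forms restrain the other members. In the VTA under PBS its groups were narrow, 29.9, 30.5 and 29.4 CPM in wild-type against 62.9, 66.2 and 68.6 CPM in Vdr-/- mice. After morphine the VTA levels met at 32.6, 36.8 and 41.02 CPM and 35.9, 41.9 and 53.4 CPM. All 3 Vdr-/- mice given morphine were below all 3 given PBS, and all 3 wild-type mice given morphine were above all 3 given PBS. The VTA genotype difference was 1.12 ± 0.05 under PBS and 0.23 ± 0.16 after morphine. In the accumbens the levels were 21.6, 22.96 and 17.3 CPM and 33.1, 39.3 and 39.4 CPM with PBS, and 23.2, 32.03 and 36.1 CPM and 27.4, 32.9 and 36.02 CPM with morphine, again apart and then mixed. The difference there went from 0.88 ± 0.12 to 0.10 ± 0.15.

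Cdkn1a (chr17:29090976-29100727, plus strand) encodes p21, an inhibitor of cyclin-dependent kinases that is induced by p53 as well as by glucocorticoids. Its PBS groups lay close in the accumbens and far apart in the VTA, a contrast between regions that was not tested. Accumbens levels were 14.5, 14.96 and 14.8 CPM in wild-type and 16.1, 19.6 and 19.3 CPM in Vdr-/- mice, a difference of 0.33 ± 0.10. VTA levels were 13.4, 10.6 and 8.02 CPM and 30.9, 30.8 and 36.7 CPM, a difference of 1.62 ± 0.18 or 3.07-fold. With morphine the accumbens held 20.4, 28.4 and 27.03 CPM in wild-type and 22.9, 26.04 and 28.2 CPM in Vdr-/- mice, and the VTA 24.4, 37.3 and 32.2 CPM and 25.2, 34.9 and 38.4 CPM. The genotypes overlapped in both regions after morphine, and the differences were 0.04 ± 0.12 and 0.06 ± 0.20.

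Arrdc2 (chr8:70835129-70839720, minus strand) encodes an arrestin-domain protein of the alpha-arrestin family, adaptors in membrane protein trafficking. It held 53 to 552 reads per library. In the accumbens PBS levels were 3.45, 5.85 and 3.06 CPM in wild-type and 6.19, 6.45 and 7.67 CPM in Vdr-/- mice, apart from each other, and morphine levels were 4.68, 7.85 and 4.84 CPM and 4.57, 7.05 and 5.79 CPM. In the VTA they were 7.02, 8.33 and 6.56 CPM and 16.8, 17.95 and 18.3 CPM with PBS, and 7.44, 12.5 and 11.2 CPM and 10.1, 11.1 and 14.1 CPM with morphine. Under PBS the VTA genotypes were far apart in relation to their spread, and after morphine both lay between the PBS groups apart from wild-type mouse 1.0. The genotype differences were 0.78 ± 0.23 and 0.03 ± 0.22 in the accumbens and 1.26 ± 0.11 and 0.19 ± 0.22 in the VTA, PBS first.

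Plin4 (chr17:56100591-56109803, minus strand), a perilipin that coats lipid droplets, had the largest genotype difference of the set in each region under PBS. Accumbens levels under PBS were 14.3, 9.03 and 8.16 CPM in wild-type and 26.3, 53.6 and 26.3 CPM in Vdr-/- mice, 3.31-fold on the fitted scale (1.73 ± 0.32). With morphine they were 25.8, 31.3 and 44.4 CPM and 38.6, 54.6 and 55.5 CPM, and Vdr-/- mouse 2.0 fell among the wild-type mice, with a difference of 0.57 ± 0.18. VTA levels under PBS were 24.8, 24.01 and 19.5 CPM and 64.4, 112 and 70.6 CPM, 3.48-fold (1.80 ± 0.20). Vdr-/- mouse 8 was the highest of its group in both regions. With morphine the VTA held 37.9, 48.5 and 67.8 CPM and 72.4, 92.6 and 106 CPM, where the genotypes remained apart by 0.83 ± 0.22 although each wild-type library exceeded each wild-type PBS library.

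Angptl4 (chr17:33773750-33781830, minus strand), a secreted inhibitor of lipoprotein lipase that is also a target of peroxisome proliferator-activated receptors, had the fewest reads, 14 to 221 per library. Accumbens levels were 0.848, 1.81 and 0.938 CPM in wild-type and 2.28, 2.96 and 4.76 CPM in Vdr-/- mice under PBS, and 1.74, 3.23 and 1.64 CPM and 2.05, 2.48 and 2.79 CPM after morphine. In the VTA the PBS levels were 2.03, 1.32 and 1.46 CPM and 5.84, 3.94 and 7.32 CPM, and the morphine levels 2.22, 3.53 and 2.79 CPM and 2.14, 3.35 and 4.15 CPM. The highest value in each region was that of Vdr-/- PBS mouse 9, and the genotypes were mixed after morphine in both regions. The genotype difference went from 1.47 ± 0.36 to 0.20 ± 0.27 in the accumbens and from 1.76 ± 0.26 to 0.14 ± 0.29 in the VTA.

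Sult1a1 (chr7:126672865-126676432, minus strand) encodes a cytosolic sulfotransferase of phenols and catechols. Under PBS its levels in the accumbens were 4.24, 5.85 and 3.88 CPM in wild-type and 7.20, 8.69 and 9.998 CPM in Vdr-/- mice, and under morphine 6.07, 7.49 and 8.13 CPM and 9.87, 10.4 and 12.97 CPM. The genotypes stayed apart with both injections (0.91 ± 0.18 and 0.62 ± 0.15). The VTA values were 6.33, 5.76 and 7.34 CPM and 13.5, 17.7 and 13.3 CPM with PBS, and 9.04, 8.77 and 7.80 CPM and 9.96, 14.8 and 20.01 CPM with morphine. No overlap was seen there either, although Vdr-/- mouse 2.0 lay close to the wild-type mice, and the differences were 1.16 ± 0.14 and 0.74 ± 0.23.

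**Figure D2:**
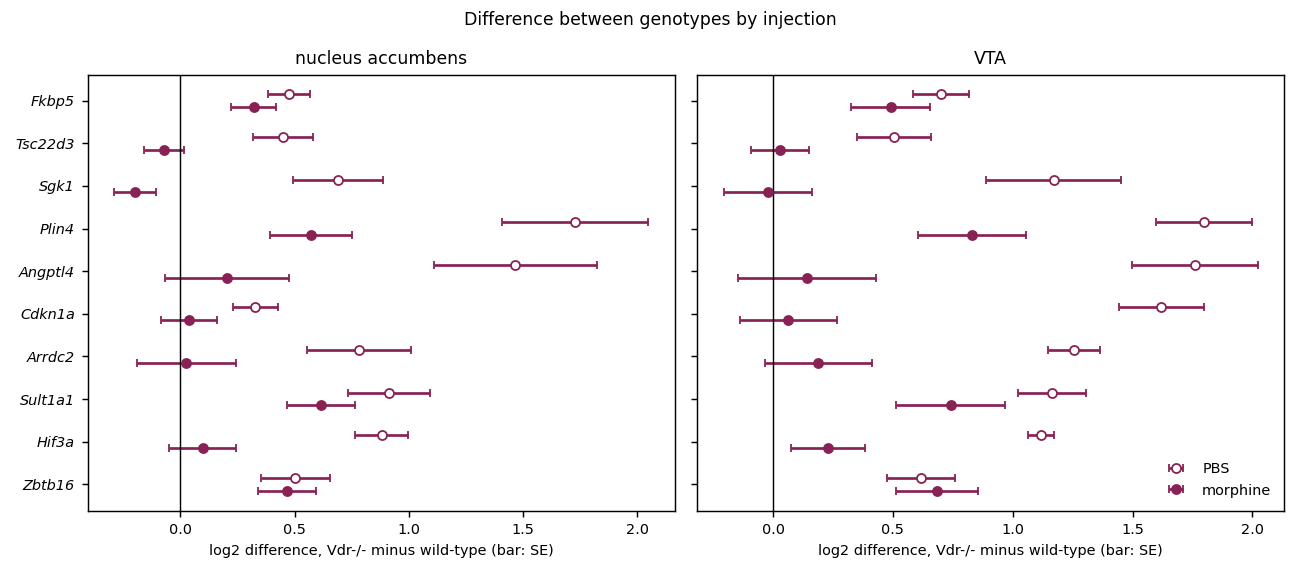
Difference between genotypes for each gene on the log2(normalized count + 1) scale (horizontal axis, Vdr-/- minus wild-type, with SE from limma, 3 against 3 mice) under PBS (open) and after morphine (filled) in both regions. The filled points lie nearer 0 than the open points for all genes in the nucleus accumbens and for all but Zbtb16 in the VTA.

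By length, Sgk1 was the most abundant of the 10 genes in wild-type PBS mice and Angptl4 the least in both regions. In the accumbens Sgk1 had 18.8 ± 5.22 RPKM (CPM per kilobase of exon, SD, n = 3), Tsc22d3 11.4 ± 2.18 and Angptl4 0.338 ± 0.149. In the VTA these were 25.9 ± 10.1, 23.04 ± 5.06 and 0.452 ± 0.107 RPKM. Sgk1 and Tsc22d3 were within their spread of each other in the VTA, as were Sult1a1 and Hif3a in the accumbens.

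Morphine was then set beside PBS within each genotype. In wild-type mice all 10 fitted differences were above 0 in both regions, and in Vdr-/- mice 6 of 10 accumbens values and 4 of 10 VTA values were above 0. These comparisons use the libraries of the genotype comparisons on which the choice of genes may rest. Genes picked for low wild-type and high Vdr-/- PBS values tend to lie higher with morphine in wild-type mice and lower in Vdr-/- mice, so the differences of the 10 genes are given as a description with no test, and nothing is read from how many passed the threshold of the fit over all genes. The VTA tables hold 3 morphine against 2 PBS mice in each genotype, without wild-type mouse 3 and Vdr-/- mouse 8.

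In the accumbens of wild-type mice the difference was largest for Plin4, at 1.66 ± 0.26 (3.17-fold, 1.44 to 1.91 with 1 library left out), followed by Angptl4 at 0.83 ± 0.37, Tsc22d3 at 0.80 ± 0.14 and Cdkn1a at 0.74 ± 0.14. For 7 of the 10 genes every morphine library lay above every PBS library. The share of all genes with this order was not computed, and nothing is read from the count. Plin4 alone had an adjusted p under 0.05 in limma, a call made higher for 0.413% and lower for 0.4% of all genes. The number of the 10 so called was 0 without PBS mouse 1 or 3 or without morphine mouse 1.0, 1.1 or 1.2, and 3 without PBS mouse 2.

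In the VTA of wild-type mice Cdkn1a, the p21 gene, had the largest difference, 1.33 ± 0.21 (2.52-fold, 1.17 to 1.52 with 1 library left out). Plin4 had 1.00 ± 0.23, Angptl4 0.72 ± 0.30 and Fkbp5 0.53 ± 0.12. The smallest difference was that of Tsc22d3, 0.03 ± 0.18, which turned negative without morphine mouse 1.1 (-0.11) or PBS mouse 2 (-0.19). Cdkn1a alone was called by limma, where 1.77% of all genes were called higher and 1.88% lower. The number called was 0 without morphine mouse 1.2 or without PBS mouse 1 or 2, which leaves 1 PBS mouse assumed to vary like the morphine group. It was 4 without morphine mouse 1.0, 3 without mouse 1.1 and 3 with all 3 PBS mice from recovered reads.

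In the accumbens of Vdr-/- mice Zbtb16 was higher with morphine by 0.54 ± 0.10, Plin4 by 0.51 ± 0.23, Cdkn1a by 0.45 ± 0.10 and Tsc22d3 by 0.28 ± 0.08. Sgk1 had -0.25 ± 0.09, Hif3a -0.26 ± 0.10 and Angptl4 -0.42 ± 0.25. Plin4 went to 0.85 without PBS mouse 8, the highest of its group. Limma called Zbtb16, Cdkn1a and Tsc22d3, 3 of 10, beside 9.94% of all genes called higher and 9.13% lower. The number was 5 without PBS mouse 7 and 2 without PBS mouse 9 or morphine mouse 2.1.

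In the VTA of Vdr-/- mice Angptl4 was lower with morphine by 1.07 ± 0.28, Hif3a by 0.61 ± 0.15, Arrdc2 by 0.59 ± 0.15, Sgk1 by 0.49 ± 0.13 and Tsc22d3 by 0.41 ± 0.06 on the log2 scale. Against the 2 PBS mice of the table none of these 5 genes overlapped, and with PBS mouse 8 counted Angptl4 did (3.94 CPM in that mouse, 4.15 CPM in morphine mouse 2.2). The share of all genes without overlap was not computed here either, and nothing is read from this count. Fkbp5, Plin4 and Zbtb16 were on the other side of 0, at 0.40 ± 0.17, 0.40 ± 0.14 and 0.41 ± 0.15. Cdkn1a, at -0.06 ± 0.17, changed sign without PBS mouse 9 or morphine mouse 2.0, and Sult1a1, at 0.10 ± 0.25, without morphine mouse 2.2 or with all 3 PBS mice. Limma called Tsc22d3, Hif3a and Arrdc2 lower, 3 of 10, where 5.28% of all genes were called lower and 4.74% higher. The number was 0 without PBS mouse 7 or 9, 1 without morphine mouse 2.1 and 6 without mouse 2.0. Without the mean-variance trend limma called 0 of the 10 genes in any of the 4 morphine comparisons.

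**Figure D3:**
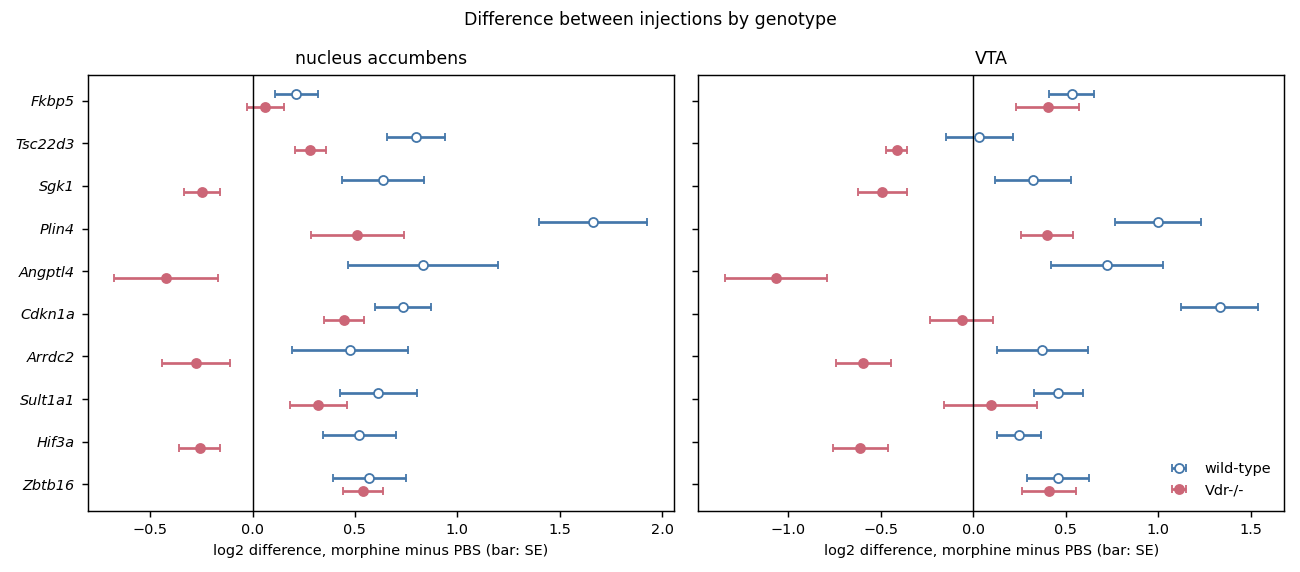
Difference between injections for each gene on the log2(normalized count + 1) scale (horizontal axis, morphine minus PBS, with SE from limma) in wild-type (open blue) and Vdr-/- mice (filled red), with 3 against 3 accumbens and 3 against 2 VTA libraries. All wild-type points lie above 0, and of the 10 Vdr-/- points 4 lie below 0 for accumbens and 6 for VTA.

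The punches were checked with cell type markers, and their levels moved with injection and, for some lists in each region, with genotype. The 6 dopamine neuron markers (Th, Slc6a3, Slc18a2, Ddc, Nr4a2 and Pitx3) summed to 1865 to 2374 CPM in wild-type PBS, 347 to 1772 in Vdr-/- PBS, 117 to 393 in wild-type morphine and 436 to 902 CPM in Vdr-/- morphine libraries of the VTA. Every one of the 6 had reads in all 12 VTA libraries. These sums did not overlap between genotypes under either injection, and 6 of 6 markers were lower in Vdr-/- mice under PBS (median log2 difference -1.15, 3 at an unadjusted p under 0.05) and 6 of 6 higher after morphine (median 1.35, 6 at an unadjusted p under 0.05). The 6 oligodendrocyte markers of the VTA summed to 11970.5 to 13022 and 11859 to 12284 CPM with PBS and to 6108 to 10029 and 7998 to 8849.6 CPM with morphine, wild-type first. In the accumbens their sums were 4536 to 5968 and 4106 to 4325 CPM with PBS and 3967 to 4850 and 3727 to 3941 CPM with morphine. These accumbens sums did not overlap between genotypes under either injection. There 0 of 6 markers were higher in Vdr-/- mice, with 4 (PBS) and 5 (morphine) at an unadjusted limma p under 0.05. In the accumbens the 6 medium spiny neuron markers summed to 2229 to 2543 and 1947 to 2238 CPM with PBS and to 1389 to 1769 and 1255 to 1474 CPM with morphine, wild-type first, and all were above the 99.4 to 179.96 CPM in the VTA. Microglia markers summed to 219.8 to 258 and 181 to 248 CPM with PBS and 127 to 146 and 143 to 164 CPM with morphine in the VTA, and to 233 to 259 and 218 to 231 against 179 to 201.2 and 180.1 to 198 CPM in the accumbens. Choroid plexus markers stood at 129 CPM in the VTA library of Vdr-/- morphine mouse 2.1 and at 6.27 to 31.04 CPM in the other 11 VTA libraries, and without that library the median genotype difference of the 10 genes in the VTA after morphine was 0.24. The part of these markers in the morphine and genotype differences of either region was not tested. Of 47 markers in 8 cell type lists, 0 passed with limma in any of the 4 genotype comparisons, beside 0.0624% to 0.39% of all genes. At these shares 0 calls do not show equal composition. DESeq2 called 0 to 5 markers, and the 5 were in the VTA under PBS, beside 137 higher and 153 lower of 26941 genes. In the accumbens 15 of 41 markers with PBS (1424 of 15933 genes) and 7 of 41 with morphine (1209 of 15638) had an unadjusted limma p under 0.05. In the VTA these were 13 of 43 with PBS (2338 of 16425) and 15 of 44 with morphine (1406 of 16029). With morphine limma called 12 of 42 tested in the VTA and 5 of 41 in the accumbens of wild-type mice, and 12 of 45 and 20 of 41 in Vdr-/- mice, most of them lower. In wild-type mice 1.77% of all genes were called higher and 1.88% lower in the VTA, and 0.413% and 0.4% in the accumbens. In Vdr-/- mice these were 4.74% and 5.28% in the VTA and 9.94% and 9.13% in the accumbens.

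**Figure D4:**
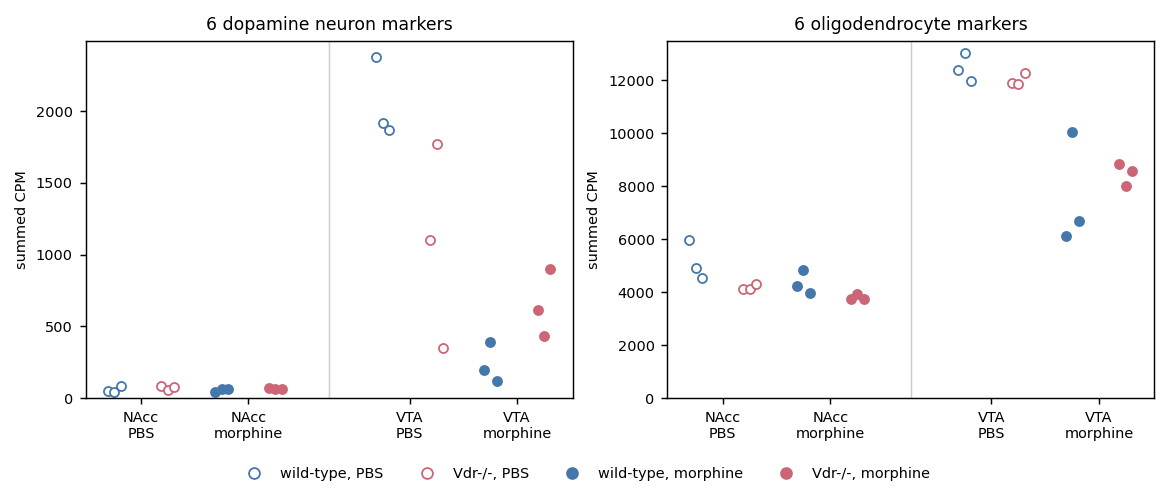
Summed level in CPM (vertical axis from 0) of 6 dopamine neuron markers (left) and 6 oligodendrocyte markers (right) in every library, by region, injection and genotype. In the VTA all morphine libraries lie below all PBS libraries for the oligodendrocyte list, and 1 Vdr-/- PBS library lies among the morphine libraries for the dopamine neuron list.

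The endothelial markers, relevant because vessels carry part of the brain's response to the hormone, summed to 389 to 404 CPM in wild-type and 395 to 413 CPM in Vdr-/- PBS libraries of the VTA, and the astrocyte markers to 3732 to 4128 and 3079 to 3952 CPM. In the accumbens under PBS the endothelial sums were 274 to 291 and 243 to 263 CPM and the astrocyte sums 2837 to 4756 and 4148 to 4734 CPM. None of these sums was higher in all Vdr-/- than in all wild-type libraries, and the endothelial sum of the accumbens was lower in all 3 Vdr-/- libraries. Single endothelial markers of the VTA went both ways under PBS, from -0.54 to 0.26, with 4 of 7 at an unadjusted p under 0.05 and 3 called by DESeq2. Wild-type PBS mouse 2 stood apart in the accumbens, where its ratio to the other libraries fell with exon length across genes (Spearman's rho -0.37, against -0.08 to 0.23 in the other 11), and without it the 10 genes still did not overlap between genotypes under PBS.

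The hormone's receptors and handling genes were read for genotype next. Vdr itself, the targeted gene, held 1 to 17 reads per library in wild-type and 0 to 17 in Vdr-/- mice, so its count does not check the labels. Nr3c1, the glucocorticoid receptor, had 105 ± 27.9 CPM (SD, n = 3) in wild-type and 98.3 ± 4.35 in Vdr-/- accumbens with PBS, and 90.7 ± 2.83 and 85.5 ± 8.14 CPM in the VTA. The log2 differences were -0.04 ± 0.21 and -0.11 ± 0.07 (limma adjusted p = 0.961 and 0.493). Nr3c2, the mineralocorticoid receptor, differed by 0.05 ± 0.08 in the accumbens and 0.11 ± 0.18 in the VTA (adjusted p = 0.854 and 0.820). Hsd11b1, the enzyme that regenerates active hormone in cells, had 13.8 ± 1.68 CPM in wild-type and 9.89 ± 4.48 CPM in Vdr-/- VTA with PBS. After morphine Nr3c1 had 110 ± 3.38 CPM in wild-type and 108 ± 1.89 CPM in Vdr-/- accumbens. In the VTA after morphine its wild-type libraries held 103 to 110 CPM and its Vdr-/- libraries 82.1 to 95.7 CPM, without overlap. Nr3c2 had 66.5 ± 1.43 and 64.4 ± 4.16 CPM in the accumbens and 32.4 ± 3.86 and 38.8 ± 8.09 CPM in the VTA after morphine, wild-type first.

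Of the 12 genes in the list of receptors, chaperones, cofactors and hormone enzymes, 11 were tested and 0 passed with limma in any genotype comparison, with 1 to 4 at an unadjusted p under 0.05 and 0 or 1 called by DESeq2. The 4 were in the VTA under PBS, where 2338 of 16425 genes had an unadjusted limma p under 0.05. In the genotype comparisons limma called 0.0624% to 0.39% of all genes, so 0 calls in so short a list say little. With morphine, 2 of 11 rose in the accumbens of Vdr-/- mice (9.94% of all genes called higher), Fkbp4, an Hsp90 co-chaperone, by 0.36 ± 0.05 and Ptges3, the co-chaperone p23, by 0.18 ± 0.05 (limma adjusted p = 8.62e-04 and 0.0416). In their VTA 3 of 11 rose (4.74% of all genes), Hsd11b1 by 0.63 ± 0.10, Ncoa1 by 0.25 ± 0.06 and Ncor1 by 0.22 ± 0.05 (adjusted p = 0.0181, 0.0493 and 0.0477). In wild-type mice 0 passed in either region, with 0 and 4 at an unadjusted p under 0.05 and 0 called by DESeq2.

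A list of 27 other genes known to respond to glucocorticoids, none of them in the set, was read beside it. The list was also chosen with earlier results of these data known, so its counts and p-values are not independent support. In the VTA under PBS 2 of 27 were higher in Vdr-/- mice, Nfkbia, the inhibitor of NF-kappaB, by 0.87 ± 0.10 and Ddit4, an inhibitor of mTOR signaling, by 0.70 ± 0.10 (limma adjusted p = 0.0191 and 0.0419), beside 0.39% of all genes called in either direction. The median of the list was 0.36, with 23 of 27 genes above 0. DESeq2 called 7 of the list, beside 137 higher and 153 lower of 26941 genes. Leaving out wild-type mouse 1, 2 or 3 or Vdr-/- mouse 9 left 0 calls, leaving out mouse 7 left 1, and leaving out mouse 8 gave 5. In the accumbens under PBS the median was 0.20 and 0 of 26 passed with limma, beside 0.069% of all genes. There 9 of 26 had an unadjusted limma p under 0.05 (1424 of 15933 genes). DESeq2 called 1, beside 22 higher and 41 lower of 26380 genes. After morphine 0 of 26 passed in the accumbens (4 unadjusted, 0 by DESeq2, 0.192% of all genes) and 0 of 26 in the VTA (3 unadjusted, 0 by DESeq2, 0.0624%), with medians of 0.03 and 0.09.

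With morphine limma called genes of the same list in both directions in Vdr-/- mice, and in wild-type mice only higher ones, in the accumbens. In the accumbens of wild-type mice 2 of 26 rose, beside 0.413% of all genes called higher and 0.4% lower. These were Rasd1, a Ras-like protein first found as a dexamethasone-induced gene, by 1.80 ± 0.25 and Gjb6, a connexin of astrocytes, by 1.13 ± 0.11 (limma adjusted p = 0.0347 and 0.0165). The list's count was 0 without any of morphine mice 1.0, 1.1 and 1.2 or PBS mouse 1. It was 1 without PBS mouse 3 and 6 without PBS mouse 2. DESeq2 called 5 of the list, beside 254 higher and 239 lower of 26303 genes. In the accumbens of Vdr-/- mice 9 of 26 rose, where 9.94% of all genes were called higher and 9.13% lower, led by Gjb6 (0.96 ± 0.09), Crispld2 (0.88 ± 0.25) and Rasd1 (0.76 ± 0.14, limma adjusted p = 1.31e-04, 0.0294 and 0.00364). There 3 of 26 fell, near the 9.13% of all genes called lower. These were the metallothioneins Mt1 and Mt2, by 0.61 ± 0.09 and 0.46 ± 0.12, and Klf9, a transcription factor, by 0.40 ± 0.05 (limma adjusted p = 0.00109, 0.0229 and 7.45e-04). Of the 6 astrocyte markers 4 rose in the same comparison and 1 in wild-type mice, and their part in these changes was not tested.

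In the VTA of Vdr-/- mice 2 of 26 rose, Mfsd2a, a lipid transporter of the blood-brain barrier, by 0.48 ± 0.10 and Bcl6, a repressor, by 0.46 ± 0.07 (limma adjusted p = 0.0326 and 0.0171). There 4 fell (5.28% of all genes called lower, 4.74% higher), and the 3 with the largest changes were Mt2 by 1.18 ± 0.16, Mt1 by 1.04 ± 0.11 and Nfkbia by 0.62 ± 0.12 (adjusted p = 0.00933, 0.00644 and 0.0262). The count of 6 became 0, 2 and 3 when PBS mouse 7, PBS mouse 9 or morphine mouse 2.2, respectively, was left out, the PBS omissions leaving 1 PBS library. In the VTA of wild-type mice 0 of 26 passed with limma, beside 1.77% of all genes called higher and 1.88% lower. Of the list 6 had an unadjusted limma p under 0.05 (3919 of 16187 genes). DESeq2 called 4 of the list, beside 693 higher and 665 lower of 26162 genes. Limma called 3 and 6 when morphine mouse 1.0 or 1.1 was left out.

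Genes that answer to pathways other than the hormone were read for Hif3a, Angptl4 and Cdkn1a. Of 11 targets of hypoxia and of peroxisome proliferator-activated receptors, 0 passed with limma in any genotype comparison (1 to 5 unadjusted, 0 or 1 by DESeq2). The 5 of 11 were in the accumbens after morphine, where 1209 of 15638 genes had an unadjusted p under 0.05. Differences of the list ran there from -0.57 to 0.57. In the genotype comparisons limma called 0.0624% to 0.39% of all genes, so 0 calls in so short a list say little of these pathways. With morphine 0 passed in wild-type mice (2 unadjusted in the accumbens and 3 in the VTA, 0 by DESeq2). Of all genes 0.413% (accumbens) and 1.77% (VTA) were called higher there and 0.4% and 1.88% lower. In Vdr-/- mice Vegfa, the vascular growth factor, rose in the accumbens (0.20 ± 0.06, adjusted p = 0.0411), while Acot1 and Bnip3 fell by 0.67 ± 0.18 and 0.23 ± 0.06 (limma adjusted p = 0.0247 and 0.0256), beside 9.94% of all genes called higher and 9.13% lower. In their VTA Ucp2 and Cpt1a, genes of mitochondrial fuel use, fell by 0.50 ± 0.08 and 0.43 ± 0.06 (limma adjusted p = 0.0188 and 0.0125), beside 5.28% of all genes called lower and 4.74% higher. Of 8 other targets of p53, 7 or 8 were tested and 0 passed in any genotype comparison (0 to 3 unadjusted, 0 by DESeq2). The 3 were of 7 tested in the accumbens under PBS, where 1424 of 15933 genes had an unadjusted limma p under 0.05. The same low shares of all genes apply to this list. With morphine limma made calls only in the VTA of Vdr-/- mice (0 or 1 unadjusted and 0 or 1 by DESeq2 in the other 3 comparisons), where Phlda3, Sesn2 and Ccng1 fell by 0.40 ± 0.10, 0.37 ± 0.08 and 0.24 ± 0.05 (adjusted p = 0.0457, 0.0350 and 0.0316). Of all genes 5.28% were called lower and 4.74% higher in that comparison.

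The regions were compared within each of the 12 mice, a contrast that did not choose the genes but uses the same libraries. Under PBS the median genotype difference was 1.17 in the VTA and 0.74 in the accumbens. Genes chosen for high Vdr-/- values can therefore lie higher in the VTA, and the p-values here do not account for that choice. Its part in the regional differences was not tested. All 10 genes passed (limma on paired log2(CPM + 1) differences), 9 of them higher in the VTA, where 44.6% of all genes were called higher, and Fkbp5 alone higher in the nucleus accumbens, with 30.3% of all genes. The regional difference was widest for Plin4, at -0.94 ± 0.05 (accumbens minus VTA, SE), and Arrdc2, at -0.91 ± 0.07. Fkbp5 differed by 0.50 ± 0.05 in the other direction, and its level was higher in the accumbens in 12 of 12 mice. Tsc22d3, Sgk1, Plin4, Arrdc2, Hif3a and Zbtb16 were higher in the VTA in 12 of 12 mice, which gives the smallest two-sided p the exact sign permutation test allows with 12 mice, 0.000488. Angptl4 was higher there in 11 of 12 mice (-0.36 ± 0.09, exact permutation p = 0.00342) and Sult1a1 in 10 of 12 (-0.43 ± 0.08, exact permutation p = 0.00342).

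Cdkn1a was the least certain, higher in the VTA in 9 of 12 mice by -0.24 ± 0.10 (limma adjusted p = 0.0428, exact permutation p = 0.125). It lost its call when TMM-scaled CPM were used (adjusted p = 0.0956), without the mouse block (0.153), with edgeR (0.164), and without any 1 of Vdr-/- PBS mice 7, 8 and 9, wild-type morphine mice 1.0, 1.1 and 1.2 and wild-type PBS mouse 1 (0.0700 to 0.101). Of 25 other glucocorticoid-responsive genes tested, 15 were higher in the VTA and 9 in the accumbens. The 3 mice with more Cdkn1a in the accumbens were the wild-type PBS mice, whose VTA levels were the low ones. The summed medium spiny and dopamine neuron markers above set the regions apart in every mouse, although Nr4a2 alone was higher in the accumbens in 3 mice, and the part of cell composition in the regional differences was not tested.

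Within groups, mice that were high in one region tended to be high in the other. Deviations of log2(CPM + 1) from the group mean, which leave out the genotype difference, correlated between accumbens and VTA with a median Pearson's r of 0.67 over the 10 genes (0.14 to 0.92), beside a median of 0.06 over 15062 genes. Only 3.49% of all genes had an r above 0.67. Plin4 had r = 0.92 (exact permutation p = 0.00154, n = 12) and Spearman's rho 0.92 (exact permutation p = 0.00231). Sgk1 had r = 0.91 (exact permutation p = 0.00694) and rho 0.88 (exact permutation p = 0.00694), and Hif3a r = 0.77 (exact permutation p = 0.00386) and rho 0.90 (exact permutation p = 0.000772, the smallest that 1296 arrangements can give).

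Tsc22d3 (r = 0.77), Zbtb16 (0.68) and Cdkn1a (0.66) also had an unadjusted exact permutation p under 0.05, which makes 6 of 10 genes beside 5.81% of all genes. With TMM-scaled CPM the value of Cdkn1a was 0.0625. After adjustment over all 15062 genes no gene passed (0, with 875 unadjusted), and the adjusted values of the 10 genes were 0.581 to 0.983, so these correlations fail the correction. With 1296 arrangements a gene could pass it only together with many others at or near the smallest p, and that was not seen. The adjusted values therefore depend on how many genes had small p-values. Without the 2 mice farthest from the median in the accumbens r was 0.94 for Plin4, 0.83 for Sgk1 and 0.82 for Hif3a, while that of Angptl4 went from 0.41 to 0.05 and that of Sult1a1 from 0.14 to -0.02. In the 6 PBS and the 6 morphine mice taken apart, r was 0.91 and 0.98 for Plin4, 0.96 and 0.78 for Sgk1, 0.77 and 0.84 for Hif3a. Fkbp5 and Cdkn1a correlated in the morphine mice (0.98 and 0.95) and had lower values in the PBS mice (-0.26 and 0.08), a difference that was not tested.

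Some mice deviated in the same direction for most of the genes. Vdr-/- morphine mouse 2.0 was below its group mean for 10 of 10 genes in both regions, and wild-type morphine mouse 1.0 for 10 of 10 in the accumbens and 9 of 10 in the VTA. Their mean deviations were -0.20 and -0.28 (log2, accumbens and VTA) and -0.23 and -0.24. Vdr-/- morphine mouse 2.2 was above its group mean for 9 and 10 of 10 genes, by 0.12 and 0.23 on average. The 10 values of a mouse come from the same library and are not independent of each other.

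**Figure D5:**
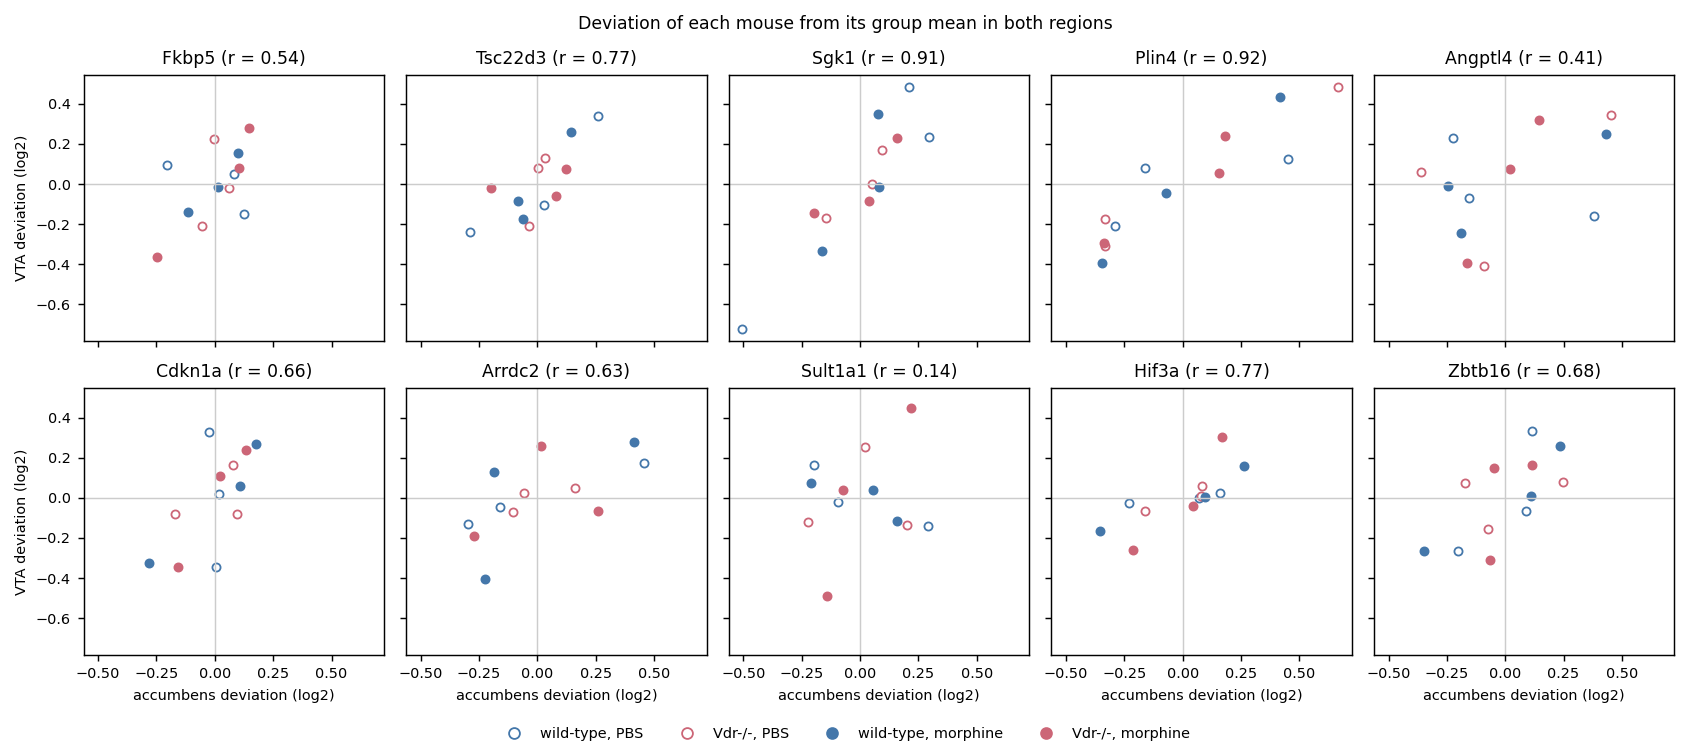
Deviation of each mouse from its group mean in accumbens (horizontal axis) and VTA (vertical axis), both on the log2(CPM + 1) scale, for each gene, with 12 mice per panel and Pearson's r in the title. Points follow the diagonal most closely for Plin4 and Sgk1 and least for Sult1a1.

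The genes of the set varied together across libraries, which the choice of genes with a shared genotype difference partly fixes. The correlation of each with the mean of the other 9 ran from 0.71 (Zbtb16) to 0.91 (Sult1a1) over the 12 accumbens libraries and from 0.70 (Tsc22d3) to 0.91 (Arrdc2) over the 12 VTA libraries. Outside the set, the 5 genes most like its mean in the accumbens were Pnpla2 (0.91), Kndc1 (0.91), Tma16 (0.91), Ucp2 (0.90) and Elac1 (0.90), of 14870 compared by Pearson's r. In the VTA they were Zfp771 (0.95), Carmil2 (0.94), Mafk (0.94), Hr (0.93) and Rnf126 (0.92), of 15005. Pnpla2 encodes the lipase that starts the breakdown of stored triglyceride, Ucp2 an uncoupling protein of mitochondria, and Hr a corepressor of nuclear receptors. No gene was among the 5 in both regions, while among the first 12 of each region Map3k6 was in both (0.88 in the accumbens and 0.89 in the VTA). The libraries share depth and dissection differences, so these likenesses are given as a description.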

How the data were processed

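Bulk mRNA was sequenced from nucleus accumbens and VTA micropunches of 12 mice, and groups were taken from the sample labels. Per the methods, the authors made stranded libraries (NEXTflex), trimmed reads with Trimmomatic 0.36, mapped them with STAR 2.4.2a to the GENCODE annotation of GRCm38, and counted reads per gene. The deposited values are a signal, counts divided by DESeq2 size factors, in 8 tables of 1 comparison each, scaled separately. Columns of fold changes and p-values were not used. Each value was a whole multiple of the value of 1 read (100.0% of values, tolerance 0.01), so reads per library were recovered and given as CPM. Depth was 9328726 to 30184426 reads.

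Within each table, log2(value + 1) of genes with a mean of at least 10 was tested with limma 3.58.1 (trend, R 4.3.3) and Benjamini-Hochberg adjustment over all genes, at a threshold of 0.05. A log2 difference on this scale understates the change of low genes. Regions were compared as paired differences of log2(CPM + 1) per mouse, at a mean of at least 1 CPM, by limma and by exact sign permutation (two-sided, scipy 1.17.1). Within-group correlations used exact permutation of mice within groups. Alternatives were other pseudocounts, filters and scalings, limma without trend, edgeR 4.0.16 and DESeq2 1.42.0 on the recovered reads, all 3 VTA PBS mice, and each library left out. The pipeline was tested on simulated data. The 10 genes and the lists (other glucocorticoid-responsive genes, receptors and hormone handling, hypoxia and PPAR targets, p53 targets, 8 cell type lists) were chosen with earlier results of these data known. Named from each list are up to 3 genes per direction past the threshold with the largest change. The same mouse number on both regions' labels was taken as the same mouse, and the check of this pairing is given under the dependence on processing.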

Additional observations from a re-analysis of the deposited data

Results flagged for a closer look

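In 3 cases every library in the table of one comparison moved one way and every library in that of the other moved the opposite way. These differences were not tested, and they rest on groups of 3 mice or fewer. How often all genes show such opposite moves was not computed. In the VTA, Angptl4 was lower with morphine in Vdr-/- mice and higher in wild-type mice, and the log2 changes differed by -1.79 (Vdr-/- minus wild-type). Hif3a did the same in the VTA, by -0.86. In Vdr-/- mice Tsc22d3 was higher with morphine in the nucleus accumbens and lower in the VTA, and the changes differed by -0.70 (VTA minus accumbens). The VTA tables lack 1 PBS mouse per genotype, and with Vdr-/- PBS mouse 8 counted (3.94 CPM) Angptl4 overlapped morphine mouse 2.2 (4.15 CPM). The same libraries enter the genotype comparisons, and which of those chose the genes is not recorded. Dopamine neuron and oligodendrocyte marker sums of the VTA moved with injection in the same libraries, and their part in these values was not tested.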

How the results depend on the processing

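The 4 median genotype differences and the counts of genes without overlap stayed on the same side under other pseudocounts, CPM and TMM scaling. Leaving out 1 library gave medians of 0.60 to 0.86 (accumbens, PBS), -0.012 to 0.29 (accumbens, morphine, -0.012 without wild-type mouse 1.0), 1.14 to 1.25 (VTA, PBS) and 0.04 to 0.38 (VTA, morphine), and 2 to 4 genes without overlap in the accumbens after morphine. Of the 10 genes, those past the threshold of the fit with morphine (a description, since the choice of genes may rest on the same libraries) in Vdr-/- accumbens (3) were 0 without trend and 2 to 5 with 1 library left out. In wild-type accumbens (1) they were 2 without a filter, 0 without trend, 3 with DESeq2 and 0 to 3 with 1 library left out. In Vdr-/- VTA (3) they were 1 without a filter, 0 without trend, 7 with DESeq2 and 0 to 6 with 1 library left out. In wild-type VTA (1) they were 0 without trend, 3 with DESeq2, 3 with all 3 PBS mice and 0 to 4 with 1 library left out. The cause was not tested. Over all genes DESeq2 called 254 higher and 239 lower of 26303 in wild-type accumbens and 693 and 665 of 26162 in wild-type VTA. In Vdr-/- mice it called 1068 and 977 of 26414 in the accumbens and 916 and 893 of 26613 in the VTA. Between genotypes it called 22 and 41 of 26380 (accumbens, PBS) and 16 and 35 of 26215 (accumbens, morphine). In the VTA these were 137 and 153 of 26941 (PBS) and 54 and 41 of 26664 (morphine).

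Among the other glucocorticoid-responsive genes DESeq2 called 1 between genotypes in the accumbens under PBS (limma 0) and 7 in the VTA (limma 2, 0 to 5 with 1 library left out). With morphine it called 5 in wild-type accumbens (limma 2, 0 to 6) and 4 in wild-type VTA (limma 0, 0 to 6). In Vdr-/- VTA the count of 6 ranged over 0 to 8. Morphine differences turned sign for Fkbp5 in Vdr-/- accumbens (-0.013 without mouse 2.1), Cdkn1a in Vdr-/- VTA (0.11 without mouse 2.0, 0.054 without PBS mouse 9, within -0.19 to 0.11 over all omissions and -0.18 to 0.054 over those of a PBS mouse), Sult1a1 in Vdr-/- VTA (-0.15 without mouse 2.2, -0.037 with all 3 PBS mice), Tsc22d3 in wild-type VTA (-0.11 without mouse 1.1, -0.19 without PBS mouse 2, and 0.26 without PBS mouse 1) and the within-group r of Sult1a1 (-0.022 without the 2 farthest mice). Genotype differences after morphine turned sign with 1 library left out in the accumbens for Tsc22d3 (-0.13 to 0.03), Cdkn1a (-0.12 to 0.13), Arrdc2 (-0.12 to 0.26) and Hif3a (-0.09 to 0.24). In the VTA they did so for Tsc22d3 (-0.08 to 0.17), Sgk1 (-0.21 to 0.17), Angptl4 (-0.07 to 0.40), Cdkn1a (-0.13 to 0.24) and Arrdc2 (-0.06 to 0.35).

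No paired analysis was possible because the groups of the genotype and morphine comparisons share no mouse numbers. For the regions, the pairing by mouse number was part of the main test, and with no replicate block 9 of 10 genes passed, Cdkn1a being lost (-0.24, adjusted p = 0.153). Over all genes, deviations of same-numbered libraries from their group means correlated by -0.08 to 0.18 (median 0.07), over 0.1 in 5 of 12 mice, and 8 of 12 libraries correlated best with their own number. Angptl4, with as few as 14 reads in a library, is the gene that depth limits most.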

Other observations

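Of the 10 genes, 4 (Fkbp5, Cdkn1a, Plin4 and Angptl4) lie on chromosome 17, and Fkbp5 and Cdkn1a lie 0.573 Mb apart. Genes within 1 Mb of either were read for the genotype comparisons, 31 to 38 tested per comparison. The 1 neighbour past the threshold was Nudt3, a phosphohydrolase gene near Fkbp5, lower in Vdr-/- accumbens after morphine by 0.29 on the log2 scale (limma adjusted p = 0.0440). It was 1 of 34 genes tested near Fkbp5 in that comparison, where limma called 0.192% of all genes in either direction. Vdr itself is on chromosome 15.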
